A study of Homo sapiens with 6 samples.

Results

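The genes described here encode voltage-gated and related ion channels in T98G, an established human glioblastoma cell line. They were taken by symbol from the count table: the KCN potassium channel genes, the SCN sodium channel genes, the CACN calcium channel genes and the TRPC, TRPM and TRPV genes of the transient receptor potential family, pore-forming and auxiliary subunits alike, with antisense genes left out. This gave 156 genes of 57133 symbols. The study compared T98G cells in which CBX8 had been knocked out by CRISPR (sgCBX8) and which carried an empty doxycycline-inducible vector (CBX8 KO) with the same knockout cells given V5-tagged wild-type CBX8 in that vector (WT CBX8 re-expression), with 3 libraries in each group. Cells of both groups also carried the rtTA transactivator, had been selected with puromycin and hygromycin as separate stable lines, and were grown in doxycycline at 1 µg/ml for 72 h before poly(A) RNA was sequenced. No libraries of unedited T98G cells were analysed here, and whether the knockout line was 1 clone is not given in the sources used here, so re-expression, vector and line cannot be told apart. CBX8 is a chromodomain subunit of Polycomb repressive complex 1, a chromatin complex that keeps developmental genes silent.

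Ion channels set the membrane potential and carry calcium signals. Voltage-gated potassium, sodium and calcium channels open when the membrane depolarizes, inward rectifier and 2-pore potassium channels hold the resting potential, and calcium-activated potassium channels couple internal calcium to potassium outflow. Auxiliary subunits (KCNE, KCNIP, KCNAB and KCNMB for potassium channels, the beta subunits for sodium and calcium channels) change the gating or surface level of the pores they bind. The TRPC, TRPM and TRPV channels are cation channels opened by lipids, internal calcium, temperature or chemical ligands. Glioma cells are known for large calcium-activated potassium currents through BK channels, the product of KCNMA1.

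The 6 libraries held between 7950190 and 8659796 counts each. The CBX8 gene was counted 96, 104 and 83 times in CBX8 KO and 30372, 31408 and 27791 times on re-expression, where the transgene is counted too (log2 fold change 8.22, SE 0.081), as the labels give it. Of 9 glioma and astroglial markers, VIM and CD44 were abundant and SOX2, S100B and AQP4 had no counts. VIM had 21665, 22699 and 21563 counts in CBX8 KO and 23486, 24449 and 24414 on re-expression. CD44 leaned lower, with 24273, 23541 and 22074 counts in CBX8 KO and 20126, 22163 and 22005 on re-expression. GFAP had 17, 14 and 13 counts in CBX8 KO and 26, 30 and 19 on re-expression, and OLIG2 had 14, 14 and 15 and then 26, 38 and 19, neither with overlap between the groups. SLC1A3 went the other way, also without overlap, with 190, 222 and 184 counts in CBX8 KO and 126, 162 and 175 on re-expression. The summed level of this list, carried by VIM and CD44, was 5524 to 5826 CPM (counts per 1000000 counts of the library) in CBX8 KO and 5147 to 5552 on re-expression. Of 4 neuronal markers, STMN2 was at 0 and RBFOX3 had 2 counts in all, while the list as a whole, carried by SNAP25 and SYT1, summed to 11.3 to 13.0 CPM in CBX8 KO and 13.9 to 16.7 CPM on re-expression. The neuronal sum, GFAP and OLIG2 thus had their higher values on re-expression, the direction of 7 of the 9 channel genes called below. SLC1A3 had its lower values there and the counts of CD44 leaned lower too, while those of VIM were higher. The glioma and astroglial markers thus did not move in 1 direction. The part of these markers in the channel results was not tested. The immune list summed to 2.02 to 2.82 CPM in CBX8 KO and 2.17 to 3.06 on re-expression, and the endothelial list stayed below 0.48 CPM in every library. In bulk RNA, a change in the share of cells that express a gene and a change in RNA per cell cannot be told apart.

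Most channel genes were silent or nearly so in T98G. Of the 156 genes, 43 had no count in any library, which at 49934588 counts over the 6 libraries allows a level of up to 0.0601 CPM, counting error only. A further 50 had 1 to 10 counts in all and 24 had more but too few to test. The other 39 passed the expression filter (about 1.21 CPM in at least 3 libraries) and were tested. Among the voltage-gated potassium pore genes, 6 of 40 were tested and 12 were at 0, including the Shaker-type genes KCNA1, KCNA3, KCNA4, KCNA5 and KCNA6. Of the 2-pore potassium genes 8 of 15 were at 0, of the inward rectifiers 5 of 16, of the sodium channel pores 3 of 10 and of the calcium channel alpha1 pores 3 of 10. In contrast, 8 of the 16 auxiliary potassium subunits and 3 of the 4 calcium channel beta subunits were tested, and none of the 4 alpha2delta subunits was. For 3 of the genes at 0, TRPM1, TRPV5 and TRPV6, near-identical copies lie on alternate contigs of the genome build, and how reads were shared between the copies was not tested.

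**Figure D1:**
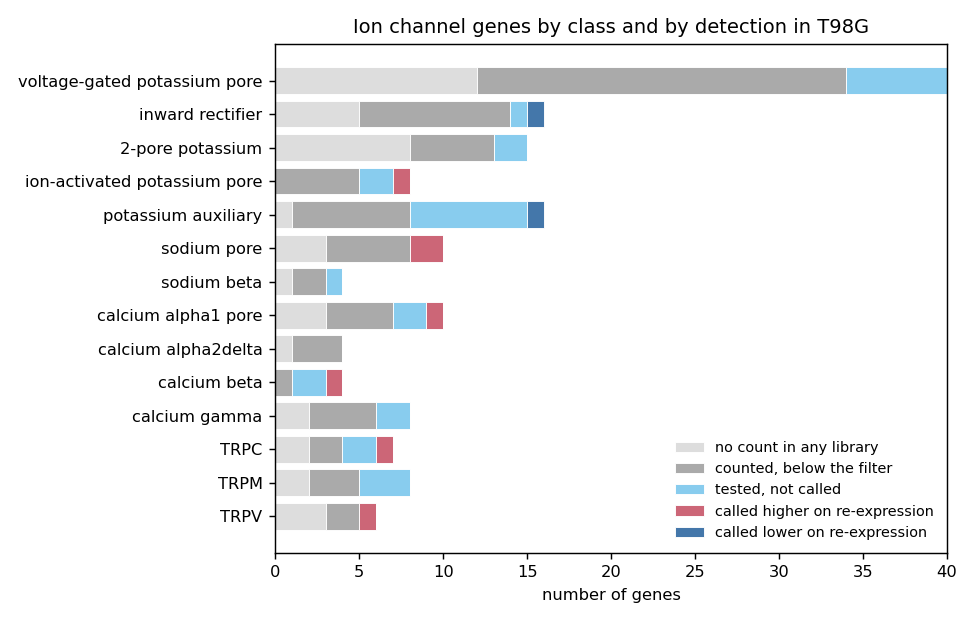
Bars give the number of channel genes in each of 14 classes (horizontal axis, genes), split by color into genes with no count, genes with counts below the expression filter, tested genes and genes called higher or lower on re-expression. Most of the 40 voltage-gated potassium pore genes fall in the 2 grey parts, and the auxiliary potassium subunits have the most tested genes, 8 of 16.

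Levels between genes are compared as CPM per kilobase of the canonical transcript. KCNE4, an auxiliary subunit that dampens several voltage-gated potassium channels, and KCNMA1, the BK pore, stood above all others. KCNE4 lay between 18.7 and 27.2 CPM per kb over the 6 libraries, and KCNMA1 between 15.2 and 20.3, so their ranges overlapped. Their order depended on the group. In CBX8 KO, KCNE4 was at 26.4 ± 1.14 CPM per kb (SD, n = 3) and KCNMA1 at 15.4 ± 0.30, whereas on re-expression they stood at 19.6 ± 0.74 and 19.6 ± 0.65. A gap separated both from TRPM7, a magnesium-permeable channel fused to a kinase, at 7.42 ± 0.52 CPM per kb (n = 6 libraries, both groups). TRPM7 was followed, with ranges that overlapped from each gene to the next, by CACNB3 (6.44), KCNG1 (6.28), KCNN4 (5.85), KCNMB3 (5.56) and KCNAB2 (5.03). After a second gap came CACNG4 (4.003), KCNS3 (3.95) and TRPC1 (3.58), and from CACNB1 (2.65) down to KCNN3 (0.104) each gene overlapped the next. Sodium channel pores were low, with SCN8A at 1.18 CPM per kb and SCN9A at 0.142, and so were the calcium channel pores, of which CACNA1C (1.16) was the highest.

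**Figure D2:**
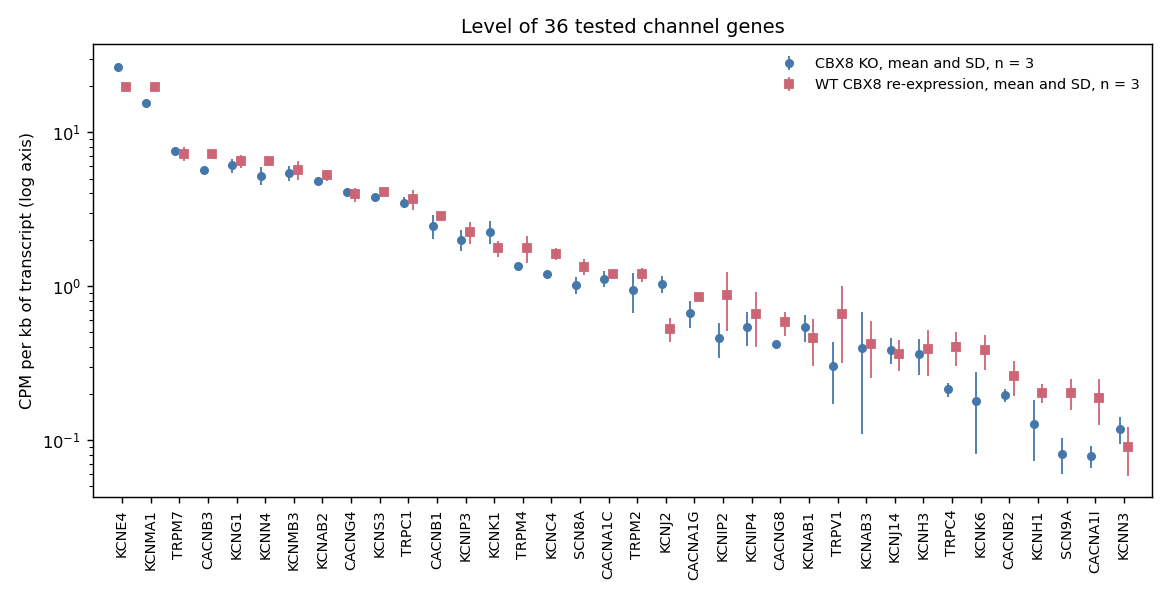
Level of 36 of the 39 tested genes in CPM per kb of transcript (vertical axis, log scale), ordered by the mean of all libraries, with circles for CBX8 KO and squares for WT CBX8 re-expression and bars for the SD of 3 libraries. KCNE4 and KCNMA1 lie apart from the rest, and KCNE4 is above KCNMA1 in CBX8 KO (26.4 against 15.4) but level with it on re-expression.

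The comparison asked which channel genes differed when CBX8 was put back. With the edgeR quasi-likelihood test fitted on all 14461 genes that passed the filter, at a Benjamini-Hochberg adjusted p below 0.05, 2 channel genes fell on re-expression (KCNE4 and KCNJ2) and 7 rose (KCNMA1, SCN8A, SCN9A, CACNA1I, CACNB3, TRPC4 and TRPV1). The 2 lower genes are 5.13% of the 39 tested channel genes, against 6.63% of all tested genes. The 7 higher genes are 17.9%, against 6.23% of all tested genes. The other 30 were not called. The log2 fold change was above 0 for 30 of the 39 channel genes (76.9%, against 51.2% of all tested genes), and its median was 0.28, against 0.0049 over all tested genes. In 14 of the 39 channel genes all 3 re-expression libraries lay above all 3 CBX8 KO libraries, and in 3 of the 39 all lay below. Over all tested genes, 2087 of 14461 (14.4%) did so in each direction. Leaving out KO replicate 1, 2 or 3 left 3, 2 and 2 channel genes called higher, and leaving out re-expression replicate 1, 2 or 3 left 3, 4 and 5, while 2 were called lower each time. DESeq2 called 1 higher, KCNMA1, and 2 lower. All p-values measure the spread between libraries, since the labels do not say whether the replicates were separate cultures.

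The channel genes are mostly low in expression, and level moved with direction over the whole table. Among genes with an average log2 CPM below 4, 32 were channel genes, of which 25 had a positive log2 fold change, 5 were called higher and 1 lower. The median of these 32 was 0.33, against 0.065 for all 5986 tested genes at that level, of which 59.0% were positive, 5.46% were called higher and 1.97% lower. Among the 8475 more abundant genes the median was -0.015, with 45.6% positive, 6.77% called higher and 9.92% lower. Of the 7 channel genes there, 5 were positive, 2 were called higher and 1 lower, with a median of 0.099. The filter also matters for these counts. Of the 39 genes, 9 exceeded the cutoff in all libraries of the re-expression group but not of the KO group, and these could pass only because they were higher there. SCN9A, CACNA1I and TRPV1 were among the 9. The numbers above are therefore a description of the genes that passed and not of all 156.

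**Figure D3:**
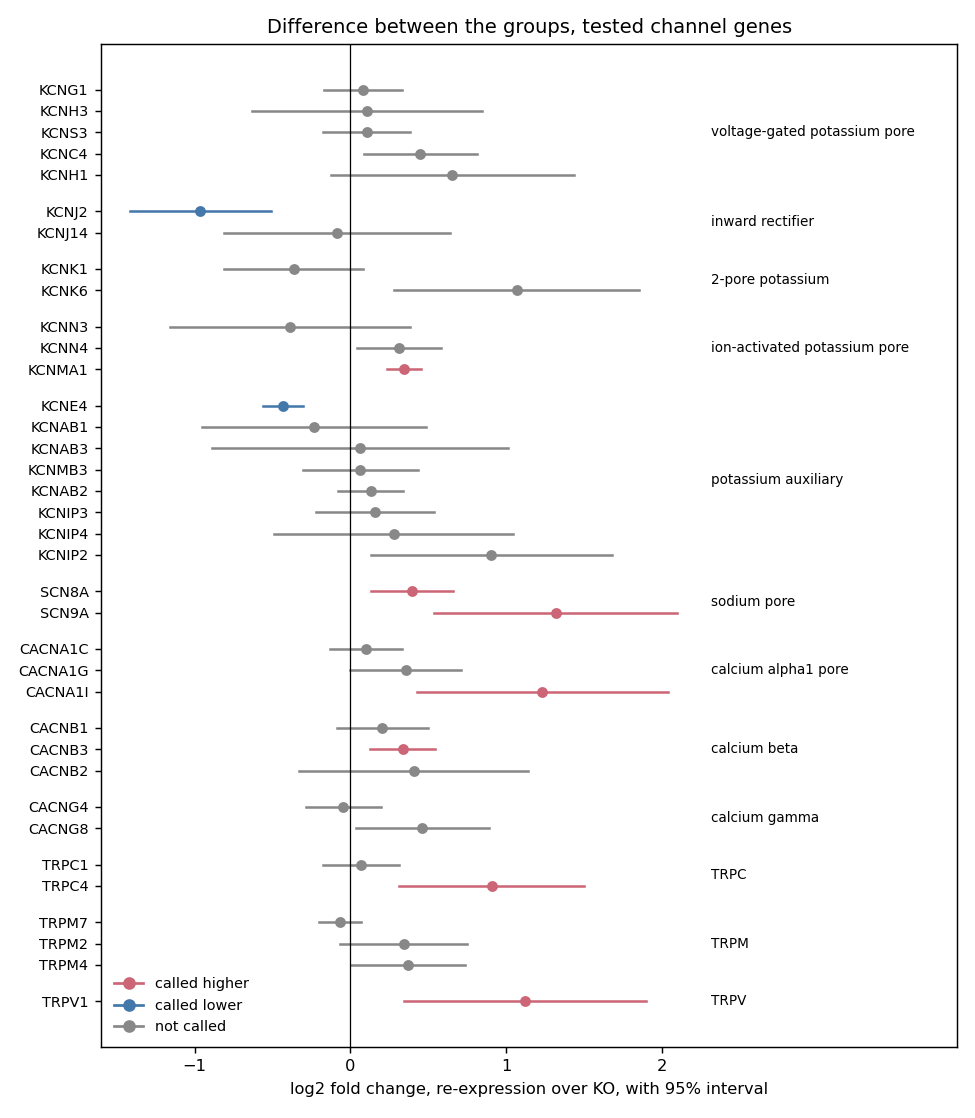
Log2 fold change of WT CBX8 re-expression over CBX8 KO for 36 of the 39 tested channel genes (horizontal axis), grouped by class, with points for the edgeR estimate and lines for its 95% interval. Of the 36 points, 28 lie to the right of 0, and the intervals of low genes such as KCNAB3 and KCNH1 are several times wider than those of KCNMA1 and KCNE4.

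The 3 calls with the smallest adjusted p were potassium channel genes. KCNE4 (chr2:223052190-223198399, plus strand, hg38) had 619, 668 and 571 counts in CBX8 KO and 499, 478 and 486 on re-expression. Every re-expression library was below every KO library, with 76.9 ± 3.33 CPM (SD, n = 3) in CBX8 KO and 57.0 ± 2.14 CPM on re-expression, and a log2 fold change of -0.43 (SE 0.062, adjusted p = 1.7e-05). KCNMA1 (chr10:76869601-77638369, minus strand) moved the other way, with 759, 799 and 770 counts in CBX8 KO and 1024, 1052 and 1069 on re-expression. The groups did not overlap, at 96.4 ± 1.89 and 122.6 ± 4.04 CPM, and the log2 fold change was 0.35 (SE 0.053, adjusted p = 4.0e-05). An antisense gene, KCNMA1-AS1, overlaps 5.7% of the KCNMA1 transcript and had 26 to 61 counts per library (log2 fold change 0.53, adjusted p = 0.11). KCNJ2 encodes the inward rectifier Kir2.1, which stabilizes the resting potential. It had 47, 40 and 47 counts in CBX8 KO and 22, 30 and 21 on re-expression, without overlap. Its level was 5.57 ± 0.71 CPM in CBX8 KO and 2.84 ± 0.51 CPM on re-expression. The edgeR log2 fold change was -0.96 (SE 0.22, adjusted p = 0.0034), a fold of 0.513. These 3 genes kept their calls when each library in turn was left out, with adjusted p between 1.7e-05 and 0.00068 for KCNE4, between 9.4e-05 and 0.00088 for KCNMA1 and between 0.0051 and 0.021 for KCNJ2.

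The bases before the start of KCNJ2 are shown with those of 2 further genes described below, because their CpG content differs widely and the counts of all 3 genes did not overlap between groups. Sequences are from the RefSeq promoter table (GRCh38.p14), 250 bases 5′ to 3′ on the gene's strand up to the annotated start, with each CG dinucleotide in capitals. The KCNJ2 window (chr17:70169282-70169531, plus strand) lies inside the annotated gene but outside its exons, and overlaps an exon of the antisense gene KCNJ2-AS1. The CACNA1I window is chr22:39570503-39570752 and the KCND2 window chr7:120272925-120273174, both on the plus strand.
KCNJ2: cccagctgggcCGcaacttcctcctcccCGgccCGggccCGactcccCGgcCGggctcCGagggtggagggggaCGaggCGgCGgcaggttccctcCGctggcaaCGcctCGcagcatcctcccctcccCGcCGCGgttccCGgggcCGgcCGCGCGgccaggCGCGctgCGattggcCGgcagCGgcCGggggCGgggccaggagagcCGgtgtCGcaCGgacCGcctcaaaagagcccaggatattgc
CACNA1I: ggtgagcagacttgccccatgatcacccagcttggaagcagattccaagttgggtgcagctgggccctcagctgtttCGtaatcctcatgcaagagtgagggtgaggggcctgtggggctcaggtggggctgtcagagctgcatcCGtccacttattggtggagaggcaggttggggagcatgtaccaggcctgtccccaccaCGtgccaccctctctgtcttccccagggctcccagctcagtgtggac
KCND2: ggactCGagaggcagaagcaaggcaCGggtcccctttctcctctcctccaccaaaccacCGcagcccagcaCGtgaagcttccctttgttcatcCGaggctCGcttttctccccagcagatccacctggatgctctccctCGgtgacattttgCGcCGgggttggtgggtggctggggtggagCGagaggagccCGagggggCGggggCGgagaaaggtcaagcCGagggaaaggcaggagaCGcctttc
The KCNJ2 window held 32 CG dinucleotides, the KCND2 window 15 and the CACNA1I window 3. At least 1 CG is found in 93.9% of the 35116 windows of the same length in the table, whose median is 11. A window with 32 or more is found in 9.5% of them, with 15 or more in 42.9%, and with 3 or more in 77.1%. The GC box letters GGGCGG, searched on both strands, occur once in the KCNJ2 window and 2 times in the KCND2 window, and in 42.6% of all windows. Such matches to letters describe the sequence and are not shown to be binding sites.

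Of the 156 channel genes, 111 had a window in that table. The 28 genes with no count in any library had a median of 6.5 CG dinucleotides (range 0 to 31) and the 54 that were counted but not tested a median of 17 (1 to 44). The 29 tested genes also had a median of 17 (1 to 51). Among the tested genes, the 7 called higher had a median of 17, the 21 not called a median of 16, and KCNJ2, called lower, had 32. The median was thus lower for genes with no count than for genes with counts, a description for which no test was made.

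Among the remaining potassium channel genes no test was passed. KCNK6, a 2-pore background channel (TWIK-2), had 10, 12 and 3 counts in CBX8 KO and 19, 14 and 23 on re-expression, without overlap, and a log2 fold change of 1.07 (SE 0.38, adjusted p = 0.068). KCNC4, the fast voltage-gated pore Kv3.4, had 39, 40 and 40 counts and then 53, 65 and 55, also without overlap, with a log2 fold change of 0.45 (SE 0.18, adjusted p = 0.097). KCNIP2 codes for a calcium-binding partner of the Kv4 pores. Its 8, 12 and 7 counts in CBX8 KO and 20, 10 and 24 on re-expression overlapped (log2 fold change 0.91, adjusted p = 0.12), and the low value came from re-expression replicate 2, without which the adjusted p was 0.041. KCNN4, the intermediate-conductance calcium-activated channel KCa3.1, had 75 to 91 counts in CBX8 KO and 98 to 114 on re-expression (log2 fold change 0.31, adjusted p = 0.13).

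The voltage-gated pore KCNH1 (EAG1) had a log2 fold change of 0.65 (95% interval -0.13 to 1.43). KCNG1, a modifier subunit that was the most abundant voltage-gated pore per kb, had 98 to 126 counts in CBX8 KO and 113 to 133 on re-expression, and the interval of its log2 fold change was -0.17 to 0.33. All 6 tested voltage-gated potassium pores had a positive log2 fold change, with a median of 0.28, and none was called. KCNH1 and KCNH3 among them exceeded the filter cutoff in every re-expression library but not in every KO library. KCNK1, the most abundant 2-pore gene, leaned the other way with a log2 fold change of -0.36 and an interval of -0.81 to 0.079. Among the 8 tested auxiliary subunits, KCNE4 was the sole call, and 6 of the 8 were positive with a median of 0.099. The KCNIP4 transcript overlaps the antisense gene PACRGL over 67.0% of its length and KCNH1 shares 49.2% with unnamed genes, so their counts are uncertain.

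Of the 2 sodium channel pores tested, SCN8A was called higher, and so was SCN9A, which passed the filter only through the re-expression group. A shared direction of these 2 genes is therefore not a result about the class. SCN8A (chr12:51590266-51812864, plus strand) encodes Nav1.6, a main carrier of fast sodium current in neurons. It had 106, 87 and 90 counts in CBX8 KO and 114, 139 and 143 on re-expression, with CBX8 KO replicate 1 (13.38 CPM) nearly level with re-expression replicate 1 (13.40 CPM). The log2 fold change was 0.40 (SE 0.13, adjusted p = 0.038). The call was lost without KO replicate 2 (adjusted p = 0.20), KO replicate 3 (0.090), re-expression replicate 2 (0.14) or re-expression replicate 3 (0.17). SCN9A (chr2:166195185-166376001, minus strand) encodes Nav1.7, known from sensory neurons. Its counts were few, 8, 5 and 6 in CBX8 KO and 15, 22 and 14 on re-expression, without overlap, and the log2 fold change was 1.32 (SE 0.38, adjusted p = 0.020). The call was lost without KO replicate 2 (adjusted p = 0.11), KO replicate 3 (0.059) or re-expression replicate 2 (0.13). SCN9A lies in a cluster on chromosome 2 with SCN1A, SCN2A, SCN3A and SCN7A. Its neighbours were not tested, with 2, 16, 19 and 0 counts over the 6 libraries.

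Among the calcium channel genes, 1 pore and 1 beta subunit passed the test, both higher on re-expression. The pore, CACNA1I, passed the filter only through the re-expression group. CACNB3 (chr12:48813794-48828941, plus strand) encodes the beta3 subunit, which helps to bring high-voltage-activated pores to the membrane. It had 130, 147 and 126 counts in CBX8 KO and 185, 183 and 173 on re-expression, without overlap, at 16.7 ± 0.71 and 21.1 ± 0.59 CPM. The log2 fold change was 0.34 (SE 0.10, adjusted p = 0.026). Leaving out KO replicate 1 (adjusted p = 0.064), KO replicate 3 (0.077), re-expression replicate 1 (0.086) or re-expression replicate 2 (0.076) ended the call. CACNA1I (chr22:39570753-39689735, plus strand) encodes Cav3.3, a low-voltage-activated T-type pore. It had 7, 7 and 5 counts in CBX8 KO and 22, 14 and 12 on re-expression, without overlap, and the log2 fold change was 1.23 (SE 0.39, adjusted p = 0.036). This call was lost without any of KO replicates 1 to 3 (adjusted p = 0.072, 0.093 and 0.12), re-expression replicate 1 (0.22) or re-expression replicate 2 (0.058). The T-type pore CACNA1G had 40, 43 and 55 counts and then 59, 65 and 64. KO replicate 3 (7.04 CPM) lay just above re-expression replicate 1 (6.94 CPM), and the test was not passed (log2 fold change 0.36, adjusted p = 0.20). For CACNA1C, the L-type pore Cav1.2 and the most abundant pore of the class, the interval of the log2 fold change was -0.13 to 0.33. CACNG4, which also serves AMPA receptors and was the most abundant gamma subunit, had an interval of -0.29 to 0.20.

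**Figure D4:**
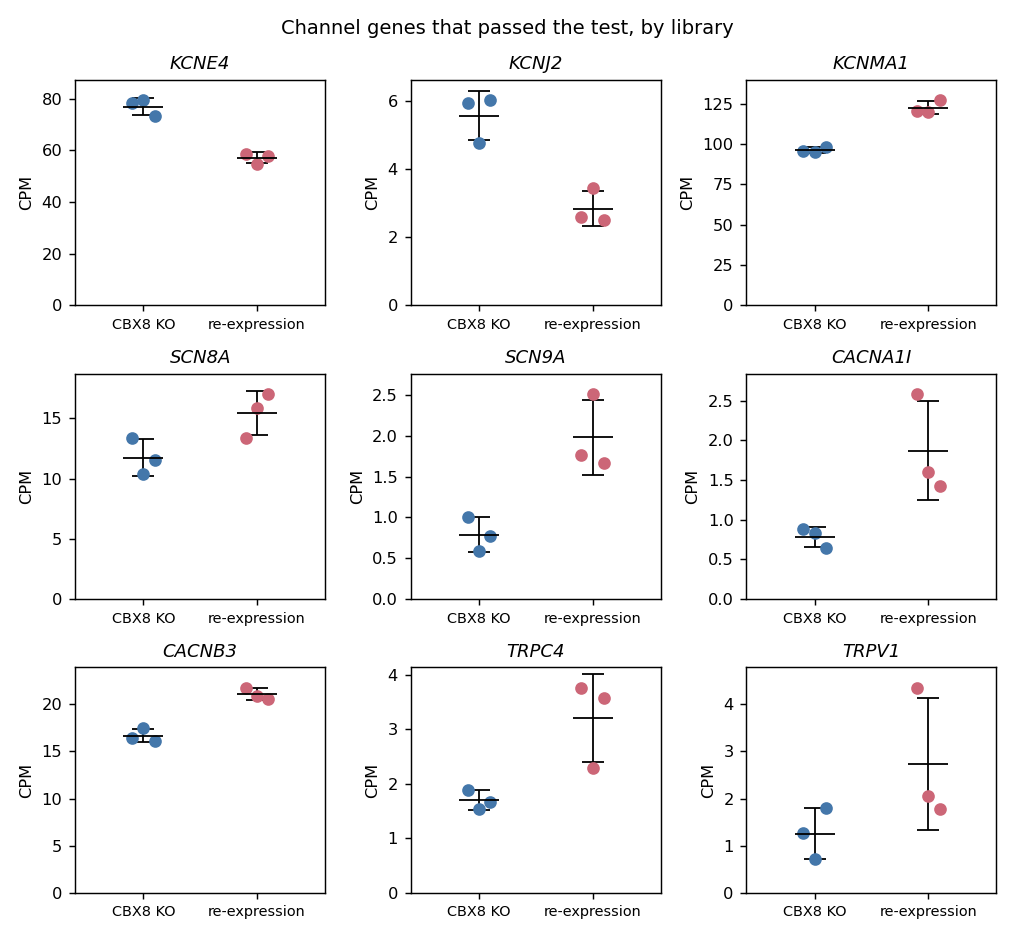
CPM of the 9 called channel genes in each library (points), with the mean and SD of 3 libraries per group (black lines) and a vertical axis that starts at 0 in each panel. KCNE4 and KCNJ2 are lower on re-expression and the other genes higher, and the groups come close or overlap for SCN8A and TRPV1.

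Of the transient receptor potential genes, TRPC4 and TRPV1 were called higher. TRPC4 (chr13:37632063-37869802, minus strand), a calcium-permeable channel opened downstream of phospholipase C, had 15, 13 and 13 counts in CBX8 KO and 32, 20 and 30 on re-expression. The groups did not overlap and the log2 fold change was 0.91 (SE 0.29, adjusted p = 0.037). The call was lost without any of KO replicates 1 to 3 (adjusted p = 0.068, 0.13 and 0.089), re-expression replicate 1 (0.15) or re-expression replicate 3 (0.12). TRPV1 (chr17:3565444-3609411, minus strand), the heat and capsaicin receptor, had 10, 6 and 14 counts in CBX8 KO and 37, 18 and 15 on re-expression. CBX8 KO replicate 3 (1.792 CPM) was just above re-expression replicate 3 (1.786 CPM), and the log2 fold change of 1.12 (SE 0.38, adjusted p = 0.0496) was at the threshold. Without re-expression replicate 1 the TRPV1 log2 fold change was 0.62 (adjusted p = 0.39), and the call was also lost without KO replicate 1 (0.13) or KO replicate 2 (0.23). In addition, 39.8% of its transcript overlaps the same-strand genes SHPK and ENSG00000262304, so its reads are uncertain. SHPK had 54 to 71 counts in CBX8 KO and 50 to 63 on re-expression (log2 fold change -0.22, adjusted p = 0.44).

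TRPC1, the most abundant TRPC gene, had an interval of -0.17 to 0.31. TRPM7 had 638, 655 and 612 counts in CBX8 KO and 580, 646 and 703 on re-expression, and its interval of -0.20 to 0.066 was among the narrowest of the uncalled genes, whose median width was 0.78. TRPM4, a calcium-activated cation channel, and TRPM2 had log2 fold changes of 0.37 (adjusted p = 0.19) and 0.34 (adjusted p = 0.29).

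**Figure D5:**
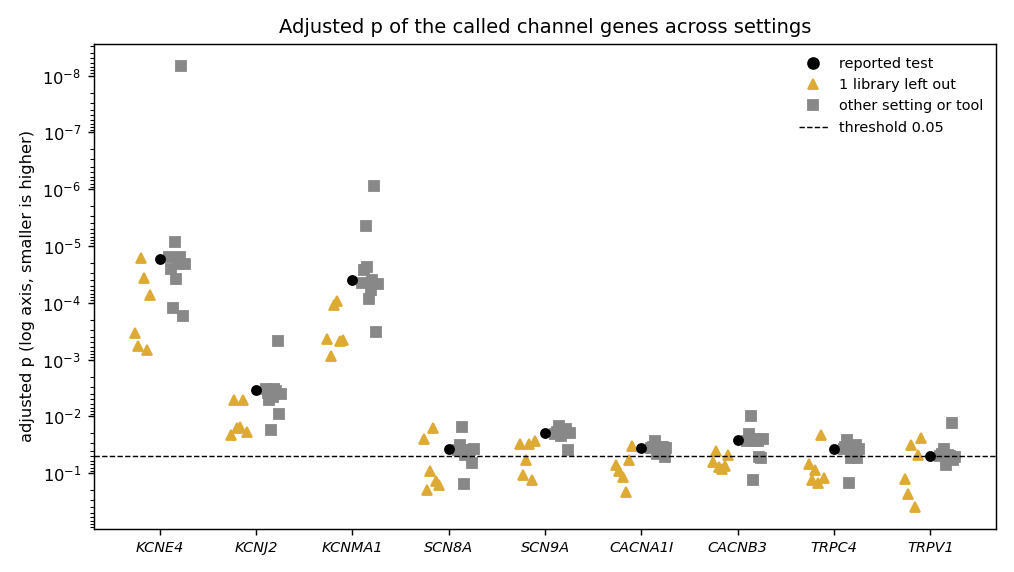
Adjusted p of the 9 called channel genes (vertical axis, log scale with smaller values higher) under the reported test (black circles), with 1 library left out (yellow triangles) and under other normalizations, filters, tools or a replicate block (grey squares); the dashed line marks 0.05. KCNE4, KCNJ2 and KCNMA1 stay above the line throughout, and each of the other 6 has points on both sides of it.

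Among the genes below the filter, some had more counts in 1 group than in the other. KCND2, the Kv4.2 pore whose promoter window is shown above, had 0, 0 and 0 counts in CBX8 KO and 4, 5 and 9 on re-expression. Set against a floor of 3 counts over the KO group, the observed re-expression counts, scaled to library size, were 5.65-fold higher. This ratio leaves out the counting error of the re-expression counts and the spread between libraries, so it is not a lower bound. KCND1, a Kv4 pore as well, had 6, 7 and 2 counts and then 13, 13 and 10, and KCNA7 had 0, 3 and 2 and then 9, 6 and 8. SCN4B, a sodium channel beta subunit, had 5, 4 and 1 counts and then 14, 6 and 8. The reverse was seen in CACNA1E, the R-type pore, with 9, 7 and 10 counts in CBX8 KO and 5, 3 and 6 on re-expression. The alpha2delta subunits CACNA2D3 and CACNA2D2 had 11, 11 and 7 and 7, 3 and 7 counts in CBX8 KO, against 7, 7 and 6 and 10, 13 and 6 on re-expression. These genes were singled out after their counts were seen. When no filter was applied, KCND2, KCNA7 and KCNK6 were called and CACNB3 was not.

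The genes that serve these channels were followed through a list of 85 further genes, comprising scaffolds, regulators, pumps, transporters and other ion channels. Of these, 58 were tested, 5 were lower (8.62%, against 6.63% of all tested genes) and 5 higher (8.62%, against 6.23%), shares near those of all genes. The median log2 fold change was 0.052, against 0.0049 over all tested genes. ANK3, the ankyrin that anchors sodium and KCNQ channels, fell from 344, 355 and 304 counts to 154, 177 and 201, a log2 fold change of -1.001 (SE 0.099, adjusted p = 4.3e-08). TRPA1, an irritant-gated channel of the TRP family, fell by 0.65 on the log2 scale (SE 0.11, adjusted p = 1.8e-04). The sodium pump subunit ATP1B1 (log2 fold change -0.28, adjusted p = 0.0013) and the plasma membrane calcium pump ATP2B1 (-0.23, adjusted p = 0.0080) were also lower, the latter not without re-expression replicate 1 (adjusted p = 0.052). BEST1 was called lower with a log2 fold change of -0.41, but the ferritin gene FTH1, which lies antisense to it, had 14393 to 20543 counts and a log2 fold change of -0.47, and the reads of the pair cannot be told apart. Higher were the calcium pump ATP2B4 (0.46, SE 0.055, adjusted p = 9.4e-07), the ubiquitin ligase NEDD4L, which removes sodium channels from the membrane (0.42, adjusted p = 9.6e-04), TTYH2 (0.80, adjusted p = 0.026) and LRRC8E of the volume-regulated anion channel (0.45, adjusted p = 0.029). The call of TTYH2 was lost without KO replicate 1 (adjusted p = 0.11) or 3 (0.10) or re-expression replicate 2 (0.069) or 3 (0.14), and that of LRRC8E without KO replicate 1 (0.11) or 2 (0.15) or re-expression replicate 1 (0.072) or 3 (0.094). LRRC8E is also overlapped by an antisense gene over 89.5% of its length. The potassium-chloride cotransporter SLC12A4 completes the 5, with a log2 fold change of 0.26 (adjusted p = 0.032), a call lost without KO replicate 1 (0.17) or 3 (0.067) or re-expression replicate 1 (0.099) or 2 (0.081).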

How the data were processed

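RNA-seq of poly(A) RNA was analysed for 6 T98G libraries, 3 CBX8 KO and 3 WT CBX8 re-expression, assigned from their titles. The table deposited by the authors holds raw counts, 1 row per symbol, made from paired-end reads that were trimmed with Trimmomatic and aligned to hg38 with HISAT2 on Galaxy. How reads were assigned to genes (program, annotation, strand) and all tool versions are not given in the sources used here, so counts of overlapping or antisense genes are uncertain.

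The 14461 genes kept by filterByExpr (10 counts at the median library in 3 libraries, 15 in all) were normalized by TMM and tested two-sided with glmQLFit and glmQLFTest of edgeR 4.0.16 in R 4.3.3, with condition as the only term, Benjamini-Hochberg adjustment over all of them and a threshold of 0.05. CPM values use TMM library sizes. Standard errors are the absolute log2 fold change over the square root of the F statistic. The 95% intervals use the total degrees of freedom of the fit, prior plus residual. Lengths, positions and exon overlaps are from GENCODE v44, in which all 156 symbols were found. DESeq2 1.42.0, limma 3.58.1 (voom), other factors and filters, a replicate block and leaving out each library were the alternatives. The test was checked on simulated counts. Libraries held 7950190 to 8659796 counts, at which the 95% interval of an uncalled channel gene had a median width of 0.78 on the log2 scale. Within each group, every pair of libraries differed by more than sampling noise (chi-square per degree of freedom 1.96 to 2.9).

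The members and gene lists were chosen with earlier results of these data known. Members named are those called, the most abundant per kb in each class, the 5 nearest above the threshold and the 5 largest changes among those not called, of which 3 genes are not reported here and are left out of the plots of levels and fold changes. Of the 85 partner genes the rule names the 4 lowest and 4 highest called, and ATP2B1 and SLC12A4 were added after their values were seen, as were CACNA1G, TRPM2 and TRPM4. NALF1 of that list is in the table under its older symbol, FAM155A.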

Additional observations from a re-analysis of the deposited data

How the results depend on the processing

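Over 17 alternatives, 2 channel genes were called lower each time, KCNE4, KCNJ2 and KCNMA1 kept their calls, and the median log2 fold change of the tested channel genes stayed between 0.23 and 0.34. The number called higher, 7 as reported, was 1 with DESeq2, which gave no adjusted p for SCN9A, CACNA1I and TRPV1, 1 at an adjusted p below 0.01, 2 with the replicate block, and 2 to 5 when 1 library was left out. Partner genes called higher, 5 as reported, were 9 with library size only, 2 with DESeq2, 2 at an adjusted p below 0.01 and 2 to 5 with 1 library left out. Partner genes called lower were 4 to 6. Library size only moved the median of all genes to 0.060. The cause of these shifts was not tested. Of 622 values of single genes under an alternative, 555 kept direction and side of the threshold, 62 lost and 2 gained the call and 3 changed sign: CACNG4 (0.0096 with library size only, 0.039 without re-expression replicate 2) and TRPC1 (-0.031 without re-expression replicate 1), none of them called, with leave-one-out ranges of -0.10 to 0.039 for CACNG4 and -0.031 to 0.17 for TRPC1. With a filter on the mean CPM, chosen after seeing the data, 38 channel genes were tested and 8 of the 9 calls were shared, TRPV1 being lost.

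Replicate numbers did not pair the libraries: same-numbered libraries had deviations correlated at -0.14, -0.18 and -0.11 over 10353 genes. With the replicate block, KCNE4, KCNMA1, KCNJ2 and SCN9A were the channel genes still called. Uncalled channel genes had intervals of a median width of 0.78 on the log2 scale with 3 libraries a group. Differences within the interval of a gene are compatible with its data, so an uncalled gene is not shown to be unchanged. The parts of depth and of replicate spread in that width were not tested.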

Other observations

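Some genes next to or named like the channel genes were counted but are not members. The epithelial sodium channel genes SCNN1A and SCNN1D, which fall outside the symbol rule, had 30 to 45 and 14 to 30 counts per library, with log2 fold changes of 0.18 (SE 0.21, adjusted p = 0.67) and 0.29 (SE 0.28, adjusted p = 0.58), while SCNN1B and SCNN1G had none. KCNQ1OT1, the imprinted antisense RNA of KCNQ1, had 51, 62 and 42 counts in CBX8 KO and 62, 79 and 88 on re-expression, and did not pass (log2 fold change 0.48, SE 0.17, adjusted p = 0.062). KCNJ2-AS1 had 4, 2 and 1 counts in CBX8 KO and 0, 2 and 1 on re-expression, too few to compare with the fall of KCNJ2. These genes were chosen after their values were seen.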
